A study of Mus musculus with 6 samples.

Results

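The 10 genes described here, Atf3, Jun, Sox11, Sprr1a, Gap43, Stmn2, Gal, Csf1, Ecel1 and Gadd45a, belong to the response of neurons to injury and to axon regeneration. They were set by name, from 35275 genes in the tables, and all 10 were among the 16137 genes that passed the filter on low counts. Atf3 was chosen by its measured rise in Sox2 cKO over Ctrl in these libraries, so its values are a description with no test. The others were chosen as genes of the same response, with earlier results of these data known. Transcripts were sequenced in bulk from the spinal cord of adult C57BL/6 mice, in 3 Sox2 cKO and 3 Ctrl animals, to ask what loss of the transcription factor Sox2 from astrocytes does to gene expression in the cord. The Sox2 cKO mice carried mGfap-Cre, a transgene active in most astrocytes, and 2 floxed Sox2 alleles (Sox2fl/fl), and no mouse was stated to have received an injury. The controls are given as mGfap-Cre with Sox2+/+ in the sample labels, as mGfap-Cre or Sox2fl/fl in the series description and as Sox2fl/fl littermates in the study, and the age is given as postnatal day 90 and as postnatal day 80. Each group held 2 females and 1 male by the study's methods, which do not assign them to libraries. Libraries are named by the last digit of their column, of which 2, 4 and 6 are Ctrl, and 1, 3 and 5 are Sox2 cKO. The study's protein blot numbers its mice in the same groups, but the sample labels do not give the column numbers. Group means formed with this assignment matched those listed in the study's supplement for 1999 of 1999 genes, and for 0 genes when the groups were exchanged.

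The libraries held 21507911 to 28392184 counts assigned to genes, and no pair agreed within sampling noise. Sox2 itself was at 19.9, 14.8 and 29.5 CPM, the counts scaled to library size by the TMM method, in Ctrl 2, 4 and 6, and at 3.16, 2.69 and 2.98 CPM in Sox2 cKO 1, 3 and 5. The groups did not overlap, with a log2 fold change of -2.86 (SE 0.24; edgeR, adjusted p = 0.00096). An exact 2-sided permutation test of 3 against 3 libraries cannot give a p below 0.10, which is what Sox2 reached. All p-values measure the spread between these mice. In bulk tissue, fewer cells of a type and less RNA per cell cannot be told apart, and neither can the cell type that holds a transcript.

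When an axon is cut or crushed, the neuron switches on a set of transcription factors, among them Atf3, Jun and Sox11, that drive genes for regrowth. Sprr1a, Gap43 and Stmn2 act in the growing axon and its cytoskeleton, Gal and Csf1 are secreted signals, Ecel1 is a membrane peptidase and Gadd45a a stress protein. The response is strongest in sensory neurons of the dorsal root ganglia and in motor neurons after peripheral nerve injury. Several of the genes also have uses outside it: Atf3, Jun and Gadd45a answer stress in many cell types, and Gap43, Stmn2 and Gal are made by intact neurons.

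The sequences upstream of Atf3, Sprr1a, Gadd45a and Gal are shown because these 4 genes had the largest fold changes of the 10. RefSeq (GRCm38.p6) gave a promoter for 8 of the 10 genes. Each line holds the 250 bases before the transcript start in the RefSeq table, 5′ to 3′ on the strand of the gene, and capitals mark a match, on either strand, to TGANTCA, the AP-1 motif to which Jun-containing dimers bind, or to CAAAG, the core of the motif of SOX factors. The lines are Atf3 at chr1:191183334-191183583, Sprr1a at chr3:92485882-92486131, Gadd45a at chr6:67037408-67037657 and Gal at chr19:3414545-3414794, all on the minus strand. The gene in the annotation of the counts (GENCODE M21) begins upstream of this start for Atf3, Sprr1a and Gadd45a, so that these stretches lie within it in full (Atf3) or in part.
Atf3: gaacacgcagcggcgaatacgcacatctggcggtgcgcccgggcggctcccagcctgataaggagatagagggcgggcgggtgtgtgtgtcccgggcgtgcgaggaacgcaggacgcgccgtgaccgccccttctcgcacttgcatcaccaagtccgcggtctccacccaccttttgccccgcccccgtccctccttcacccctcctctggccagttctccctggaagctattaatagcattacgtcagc
Sprr1a: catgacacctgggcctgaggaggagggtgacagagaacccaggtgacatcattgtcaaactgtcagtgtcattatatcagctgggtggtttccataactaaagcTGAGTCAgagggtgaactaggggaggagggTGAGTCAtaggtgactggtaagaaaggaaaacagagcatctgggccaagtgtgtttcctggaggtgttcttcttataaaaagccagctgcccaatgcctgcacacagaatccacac
Gadd45a: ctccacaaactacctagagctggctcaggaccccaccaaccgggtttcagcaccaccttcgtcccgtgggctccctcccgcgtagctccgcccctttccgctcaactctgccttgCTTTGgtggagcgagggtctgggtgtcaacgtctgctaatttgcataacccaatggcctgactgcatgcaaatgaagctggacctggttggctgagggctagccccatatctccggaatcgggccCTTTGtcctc
Gal: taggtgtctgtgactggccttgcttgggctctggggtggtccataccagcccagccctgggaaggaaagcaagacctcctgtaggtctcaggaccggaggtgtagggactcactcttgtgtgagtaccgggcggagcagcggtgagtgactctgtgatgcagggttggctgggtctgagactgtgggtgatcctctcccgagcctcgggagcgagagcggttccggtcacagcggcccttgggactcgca
The cyclic AMP response element TGACGTCA, which ATF and CREB factors bind, was in 0 of the 8 promoters and in 1.55% of 32851 promoters of the same length. Only exact matches were counted. Variants that differ by 1 base occur, such as TTACGTCA near the end of the Atf3 stretch and TGACATCA in those of Sprr1a and Jun. TGANTCA was in 1 of the 8, that of Sprr1a, where 2 copies began 146 and 116 bases before the start, and in 6.75% of all promoters. CAAAG was in 4 of the 8, Sox11, Ecel1, Gadd45a and Csf1, and in 48.6% of all promoters. TGACGTCA holds no match to TGANTCA, and a match is a description of these bases and not of binding.

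Among the 9 genes other than Atf3, 4 rose in Sox2 cKO spinal cord and none fell (edgeR, adjusted p below 0.05, with 0 lower at an unadjusted p below 0.05, and 4 higher and 0 lower by DESeq2). The 4 were Sprr1a, Gal, Gadd45a and Stmn2, with log2 fold changes of 3.65, 1.51, 0.77 and 0.30. A log2 fold change of 1 or more, which 2.06% of all genes tested had upward, was that of Sprr1a and Gal and, as chosen, of Atf3. Of all 16137 genes tested, 24.6% were called, 12.2% as higher and 12.4% as lower. Higher genes were 49.4% of these calls, and 74.5% of the calls of limma on log2(FPKM + 1). Gap43, Jun, Sox11, Ecel1 and Csf1 did not pass the test. Every Sox2 cKO library lay on 1 side of every Ctrl library in CPM for 3 of the 9 genes, Gal, Gadd45a and Stmn2, and for 44.7% of all genes tested. The median log2 fold change was 0.13 over the 9 genes, 0.21 with Atf3 and 0.02 over all genes tested.

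**Figure D1:**
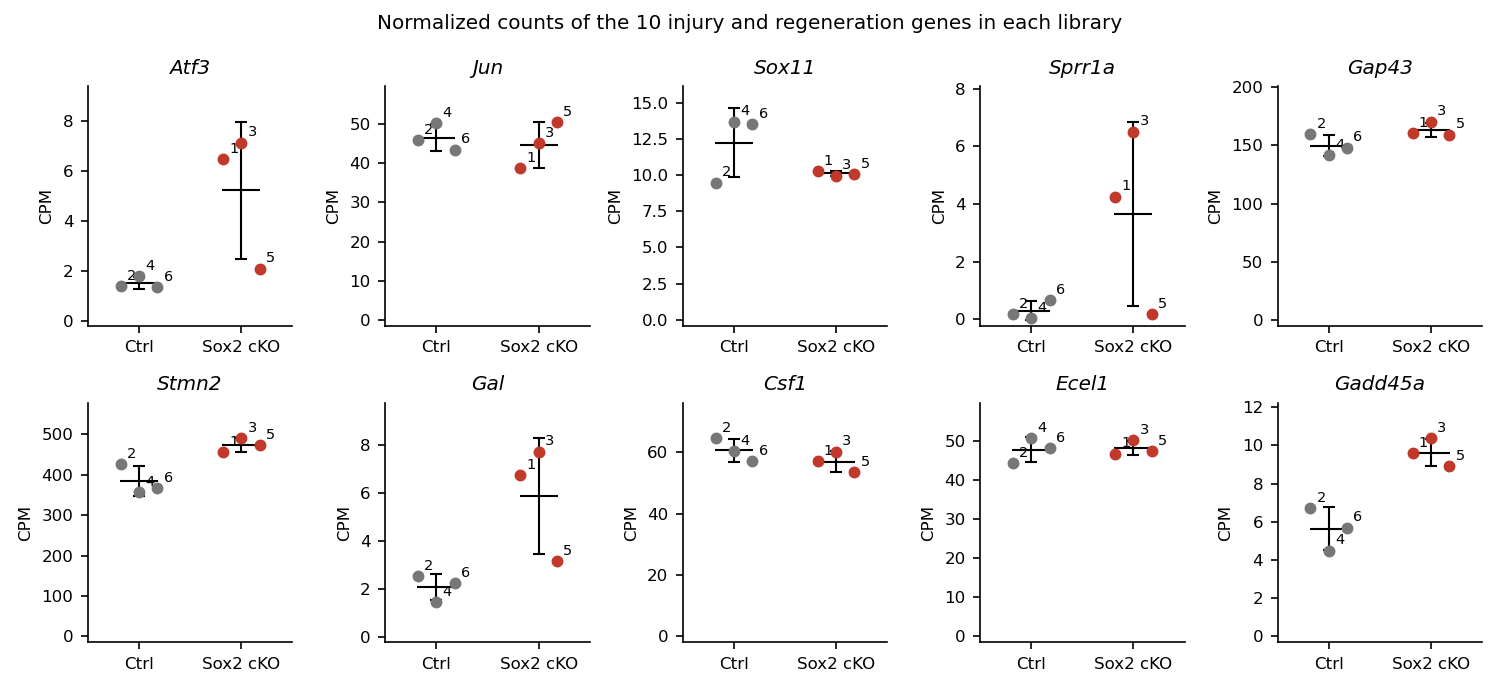
CPM of the 10 genes (vertical axes, linear) in Ctrl and Sox2 cKO spinal cord; each point is a library with its number, and bars are the mean ± SD (n = 3 per group). Atf3, Sprr1a and Gal were highest in Sox2 cKO 1 and 3, while the Sox2 cKO libraries of Gadd45a and Stmn2 lay together above Ctrl.

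Fold changes in these libraries went with transcript length: the rank correlation of the 2 (Spearman's rho) was -0.48 across genes, which are not independent replicates, and shorter genes tended to be higher in Sox2 cKO. The 10 genes had a median length of 1944 bases, against 3060 over all genes tested. With a length trend removed from each library, 1 of the 9 genes was called, Gal, where 13.1% of all genes were (6.08% higher and 6.99% lower), and the median log2 fold change was 0.06 over the 9 genes and 0.00 over all genes.

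**Figure D2:**
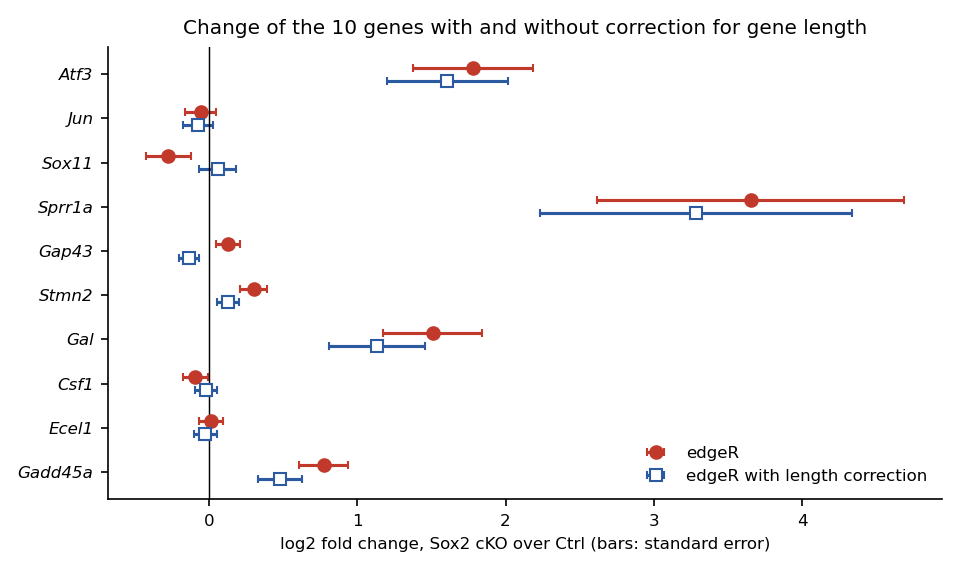
Log2 fold change of Sox2 cKO over Ctrl (horizontal axis) for each of the 10 genes, with bars of 1 standard error; filled circles are the edgeR estimates and open squares those after the length correction. Gap43 moved from 0.13 to -0.14 and Sox11 from -0.27 to 0.06, while Sprr1a moved from 3.65 to 3.29 and Gal from 1.51 to 1.13.

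Atf3 (ENSMUSG00000026628, chr1), a stress-induced factor of the ATF/CREB family and a common marker of injured neurons, was counted 31, 43 and 28 times in Ctrl 2, 4 and 6, and 147, 209 and 55 times in Sox2 cKO 1, 3 and 5. These counts correspond to 1.39, 1.79 and 1.35 CPM in Ctrl and to 6.46, 7.13 and 2.08 CPM in Sox2 cKO. The groups did not overlap, but Sox2 cKO 5 lay nearer to the Ctrl libraries than to the other 2 Sox2 cKO libraries. The log2 fold change was 1.78 (SE 0.41), and 1.61 after the length correction. Jun, the AP-1 subunit that partners Atf3 in injured neurons, was at 45.8, 50.2 and 43.4 CPM in Ctrl and 38.7, 45.0 and 50.4 CPM in Sox2 cKO. The groups overlapped across their range, and the log2 fold change of -0.06 (SE 0.11) was within the replicate spread (edgeR, adjusted p = 0.72). On the log2(FPKM + 1) scale it was 0.03, where the median of all genes was 0.09. Sox11, a factor of developing and regenerating neurons, was at 9.47, 13.7 and 13.5 CPM in Ctrl and 10.3, 9.96 and 10.1 CPM in Sox2 cKO. The Sox2 cKO libraries lay close together, between Ctrl 2 and the other 2 Ctrl libraries. The log2 fold change was -0.27 (SE 0.15; edgeR, adjusted p = 0.20), and without Ctrl 2 it was -0.43 and passed the test (edgeR, adjusted p = 0.014).

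Among 17 other transcription factors of the injury response, 4 rose and 3 fell (edgeR), with a median log2 fold change of 0.22. Cebpb, an inflammation and stress factor, was at 2.38, 2.62 and 2.12 CPM in Ctrl and 4.26, 6.04 and 5.74 CPM in Sox2 cKO, a log2 fold change of 1.17 (SE 0.19; edgeR, adjusted p = 0.013). Atf4 and Ddit3, which act in the integrated stress response, and Cebpd also rose, by 0.95, 0.52 and 0.88 on the log2 scale. Sox4, Klf6 and Stat3, which are each tied to axon growth, fell by 0.51, 0.31 and 0.22. After the length correction Cebpb and Atf4 were still called higher and none was called lower.

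Sprr1a (chr3), a small proline-rich protein of the cornified envelope that injured sensory neurons also make and that promotes axon outgrowth, showed the largest fold change of the 10 genes on the lowest counts. It was counted 4, 1 and 14 times in Ctrl 2, 4 and 6 and 97, 191 and 5 times in Sox2 cKO 1, 3 and 5, which is 0.179, 0.0416 and 0.676 CPM against 4.26, 6.52 and 0.189 CPM. The groups overlapped, since Sox2 cKO 5 lay below Ctrl 6 while Sox2 cKO 1 and 3 were far above every other library. The log2 fold change was 3.65 (SE 1.03; edgeR, adjusted p = 0.030), and 3.29 after the length correction (edgeR, adjusted p = 0.064). None of the other 15 Sprr genes in the tables had more than 4 counts in a library.

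Gap43 (chr16), the growth-associated protein of the axon terminal and growth cone, was at 159, 142 and 148 CPM in Ctrl and 161, 170 and 159 CPM in Sox2 cKO. The highest Ctrl library reached the lowest Sox2 cKO library, and the log2 fold change of 0.13 (SE 0.08) did not pass the test (edgeR, adjusted p = 0.27) and was -0.14 after the length correction. Stmn2 (chr3), a stathmin that binds tubulin in neurons and is needed for axon regrowth, was at 427, 358 and 368 CPM in Ctrl and 456, 491 and 474 CPM in Sox2 cKO. The groups did not overlap, and the log2 fold change of 0.30 (SE 0.09) passed the test (edgeR, adjusted p = 0.038), but not after the length correction, where it was 0.13 (edgeR, adjusted p = 0.25).

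Of 19 other genes of the growth cone and axon cytoskeleton, 1 rose and 5 fell (edgeR). Stmn3, a relative of Stmn2, rose from 475, 379 and 402 CPM in Ctrl to 625, 543 and 554 CPM in Sox2 cKO, a log2 fold change of 0.45 (SE 0.10; edgeR, adjusted p = 0.017), and 0.14 after the length correction (edgeR, adjusted p = 0.18). Map1b, a microtubule-associated protein of growing axons, fell from 2238, 4132 and 3725 CPM to 1250.4, 1666 and 1747 CPM, a log2 fold change of -1.11 (SE 0.21; edgeR, adjusted p = 0.013). The cell adhesion molecules Ncam1 and Chl1 fell by 0.69 and 0.40 on the log2 scale, and the collapsin response mediators Dpysl2 and Dpysl3 by 0.57 and 0.36. The median log2 fold change of the list was -0.03, and -0.18 after the length correction, where 1 gene was called higher and 5 lower, among the latter Map1b and Ncam1 but not Chl1, Dpysl2 or Dpysl3.

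Gal (chr19) encodes the neuropeptide galanin, which injured sensory and motor neurons make in quantity. It was counted 56, 35 and 46 times in Ctrl and 153, 226 and 83 times in Sox2 cKO, or 2.51, 1.46 and 2.22 CPM in Ctrl 2, 4 and 6 and 6.72, 7.71 and 3.14 CPM in Sox2 cKO 1, 3 and 5. All Sox2 cKO libraries lay above all Ctrl libraries, with Sox2 cKO 5 the lowest of the 3. The log2 fold change was 1.51 (SE 0.33; edgeR, adjusted p = 0.015), and Gal was the gene of the 9 that was still called after the length correction, at 1.13 (edgeR, adjusted p = 0.046).

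Of the 12 neuropeptides and galanin receptors tested, other than Gal, 6 rose and none fell (edgeR, with 1 lower at an unadjusted p below 0.05, and 0 lower by DESeq2), and the median log2 fold change was 0.44. Calca, which encodes the calcitonin gene-related peptide, was at 37.5, 19.2 and 11.8 CPM in Ctrl and 54.5, 82.5 and 48.0 CPM in Sox2 cKO, a log2 fold change of 1.43 (SE 0.34; edgeR, adjusted p = 0.018). Npy, Tac1, Nts, Sst and Cck rose by 1.12, 1.001, 0.83, 0.83 and 0.49 on the log2 scale. These peptides are also made by intact dorsal horn, sensory or motor neurons, and Calca and Tac1 are known to fall, not rise, in axotomized sensory neurons. After the length correction 3 were called, Calca, Npy and Tac1, and the median was 0.19.

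Csf1 (chr3), a cytokine that injured sensory and motor neurons release to act on microglia, was at 64.6, 60.4 and 57.1 CPM in Ctrl and 57.1, 60.3 and 53.6 CPM in Sox2 cKO. The groups overlapped, and the log2 fold change was -0.09 (SE 0.08; edgeR, adjusted p = 0.43), against 0.01 on the log2(FPKM + 1) scale. Of 9 genes of the CSF1 receptor axis and the microglial response, 1 rose and none fell (edgeR, with 2 lower at an unadjusted p below 0.05 and 2 lower by DESeq2). The gene that rose was Tyrobp, the adaptor DAP12 of microglial receptors, at 8.61, 4.70 and 3.81 CPM in Ctrl and 17.7, 12.01 and 9.44 CPM in Sox2 cKO, a log2 fold change of 1.19 (SE 0.30; edgeR, adjusted p = 0.022), and it was not called after the length correction, at 0.79 (edgeR, adjusted p = 0.075).

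Of 18 cytokine and trophic genes of injured neurons tested from a list of 22, 3 rose and 5 fell (edgeR). Il6st, the gp130 receptor subunit shared by interleukin-6, LIF and CNTF, fell from 178, 238 and 295 CPM in Ctrl to 113, 126 and 123 CPM in Sox2 cKO, a log2 fold change of -0.97 (SE 0.15; edgeR, adjusted p = 0.012). The receptors Gfra1, Cd44, Cntfr and Ret fell by 0.72, 0.62, 0.36 and 0.36 on the log2 scale. Anxa2, Hspb1 and Lgals1, an annexin, a small heat shock protein and a galectin, rose by 0.54, 0.52 and 0.35. After the length correction Anxa2 was still called higher and Il6st, Gfra1, Cd44 and Cntfr lower, and Hspb1, Lgals1 and Ret were not called. Several of these genes, Il6st and Cd44 among them, are also expressed by glia.

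Gadd45a (chr6), a stress protein that takes part in DNA demethylation and cell cycle arrest, was counted 150, 108 and 118 times in Ctrl and 218, 304 and 236 times in Sox2 cKO. This is 6.73, 4.49 and 5.70 CPM in Ctrl 2, 4 and 6 and 9.57, 10.4 and 8.92 CPM in Sox2 cKO 1, 3 and 5. The groups did not overlap and, unlike the counts of Atf3, Sprr1a and Gal, those of Sox2 cKO 5 lay near those of the other 2 Sox2 cKO libraries. The log2 fold change was 0.77 (SE 0.17; edgeR, adjusted p = 0.015), and 0.48 after the length correction (edgeR, adjusted p = 0.057). Gadd45a shares 859 bases with E230016M11Rik on the opposite strand, which had 53 to 82 counts in a library. Jun shares 689 bases with the antisense Junos, which had 26 to 56 counts. The libraries were made with a directional kit by the study's methods. Whether the counting used strand is not given in the sources used here, so reads of such pairs may not be separated.

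Of 11 other genes of the GADD45 and p53 response, 4 rose and none fell (edgeR, with 1 lower at an unadjusted p below 0.05, and 0 lower by DESeq2). Both relatives of Gadd45a were among them. Gadd45g was at 19.0, 11.1 and 12.4 CPM in Ctrl and 24.9, 28.3 and 23.8 CPM in Sox2 cKO, a log2 fold change of 0.86 (SE 0.18; edgeR, adjusted p = 0.014). Gadd45b rose by 0.68 on the log2 scale, Bax, a pore-forming protein of apoptosis, by 0.69, and Trp53, the gene of p53, by 0.42. Gadd45g and Trp53 were still called after the length correction.

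Ecel1 (chr1), a damage-induced endopeptidase of neurons, was at 44.2, 50.6 and 48.0 CPM in Ctrl and 46.6, 50.1 and 47.4 CPM in Sox2 cKO. The Sox2 cKO values lay within the Ctrl range, and the log2 fold change was 0.01 (SE 0.08; edgeR, adjusted p = 0.92) and -0.02 after the length correction.

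In the signalling pathway through which the kinases DLK and LZK report axon injury to JNK, 0 of 12 genes rose and 4 fell (edgeR, with 0 higher at an unadjusted p below 0.05, and 0 higher by DESeq2). Map3k13, the gene of LZK, fell from 24.8, 38.3 and 32.0 CPM in Ctrl to 15.2, 21.97 and 21.91 CPM in Sox2 cKO, a log2 fold change of -0.69 (SE 0.18; edgeR, adjusted p = 0.023). The ubiquitin ligase Mycbp2, the scaffold Mapk8ip3 and the axon degeneration gene Sarm1 fell by 0.41, 0.41 and 0.35 on the log2 scale. Of 13 brakes on axon growth, 0 rose and 3 fell (edgeR, with 0 higher at an unadjusted p below 0.05, and 0 higher by DESeq2), among them the receptors Epha4 by 0.46 and Ptprf by 0.37 on the log2 scale. After the length correction none of the DLK-JNK genes was called, and 1 of the brakes was still called lower. The median of the DLK-JNK list was -0.19 before the correction and -0.03 after it.

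Across the 8 lists, 19 of 111 genes tested rose and 20 fell (edgeR), beside the 12.2% and 12.4% of all genes given above, and the median log2 fold change was -0.03. With the length correction 9 were called higher and 10 lower, beside 6.08% and 6.99% of all genes. The counts of single lists after the correction stand beside the same shares.

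**Figure D3:**
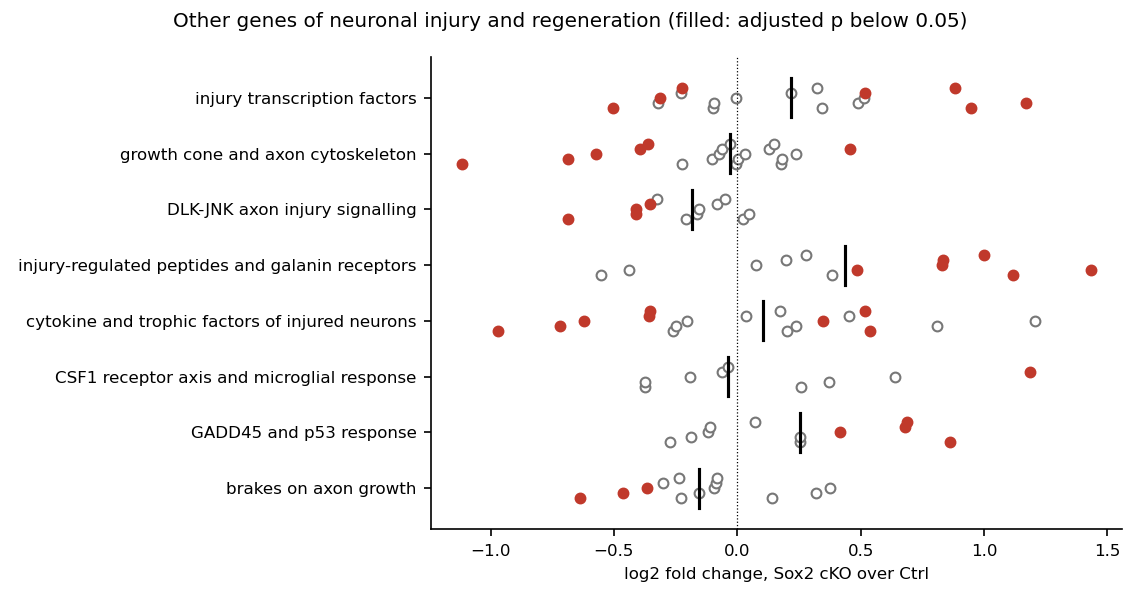
Log2 fold change of Sox2 cKO over Ctrl (horizontal axis) of the tested genes in 8 lists of the injury and regeneration response, the 10 genes left out; filled points passed the test (edgeR, adjusted p below 0.05) and vertical bars are list medians. Peptides lay highest, with a median of 0.44, and DLK-JNK signalling lowest, with a median of -0.19, whereas after the length correction the growth cone list was lowest, at -0.18.

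Atf3, Sprr1a and Gal shared a pattern across the libraries, high in Sox2 cKO 1 and 3 and near Ctrl in Sox2 cKO 5. Over the 6 libraries Pearson's r with the log2 CPM of Atf3 was 0.928 for Gal and 0.927 for Sprr1a, ranks 66 and 67 of the 13322 genes compared, and part of any such value is the difference between the groups. The 5 genes most like Atf3 were Ska2 (r = 0.993), Polr3e (0.983), Col22a1 (0.981), Capn10 (0.978) and Slc9a5 (0.978). All 5 were lowest in the Ctrl libraries and higher in Sox2 cKO 1 and 3 than in Sox2 cKO 5, and Ska2 ran from 5.17 to 6.89 CPM.

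Neutrophil genes moved with this pattern. Of 8 neutrophil markers, 7 rose (edgeR; 5 after the length correction), and their summed level was 20.5, 14.9 and 12.7 CPM in Ctrl 2, 4 and 6 and 87.2, 82.0 and 24.3 CPM in Sox2 cKO 1, 3 and 5. None of the 8 was at 0 in any library, and Lcn2, which reactive astrocytes also make, was counted 39, 18 and 21 times in Ctrl and 400, 309 and 40 times in Sox2 cKO. Their part in the values of Atf3, Sprr1a and Gal was not tested.

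Transcripts of dorsal root ganglion neurons did not follow the same libraries. The 9 markers summed to 11.98, 26.4 and 16.4 CPM in Ctrl 2, 4 and 6 and to 12.8, 13.4 and 18.5 CPM in Sox2 cKO 1, 3 and 5, and 0 of the 4 tested were called (edgeR, with 0 at an unadjusted p below 0.05, and 0 by DESeq2). Scn10a, a sodium channel of nociceptors, was counted 1, 95 and 2 times in Ctrl and 1, 4 and 44 times in Sox2 cKO. The 2 libraries with the most sensory neuron transcripts, Ctrl 4 and Sox2 cKO 5, were not those with the most Atf3, Sprr1a and Gal, and the part of ganglion transcripts in these values was not tested. Mrgprd was at 0 in Ctrl 2, Ctrl 6 and Sox2 cKO 3. Trpv1 and Prdm12 were also at 0 in Ctrl 2, Scn11a in Ctrl 6 and Prdm12 in Sox2 cKO 3.

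The summed level of 11 neuronal genes overlapped between the groups, at 10396 to 10713 CPM in Ctrl and 9951 to 10440 CPM in Sox2 cKO. Of these genes 1 was called, Map2, as lower (edgeR, with 1 higher and 2 lower by DESeq2). After the length correction the 1 called was Snap25, as higher. Of 7 motor neuron markers, 2 fell, Slc18a3 and Ret, and none rose (edgeR, with 0 higher at an unadjusted p below 0.05, and 0 higher by DESeq2). The motor neuron markers summed to 496 to 544 CPM in Ctrl and 446 to 474 CPM in Sox2 cKO, which did not overlap. Of 8 astrocyte markers, 5 fell, Gfap, Slc1a2, Aqp4, Slc1a3 and Aldh1l1, of which Gfap and Aqp4 were still called after the length correction. Trem2 rose among 8 microglial markers and none fell (edgeR, with 3 higher and 2 lower at an unadjusted p below 0.05, and 2 higher and 2 lower by DESeq2). After the length correction 1 microglial marker was called higher and 1 lower. Fxyd1 rose among 7 Schwann cell markers but was not called after the length correction. None of 7 oligodendrocyte or 5 red blood cell markers was called (edgeR, with 1 oligodendrocyte gene at an unadjusted p below 0.05, and 2 and 0 genes by DESeq2). With the length correction 1 oligodendrocyte gene was called lower.

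**Figure D4:**
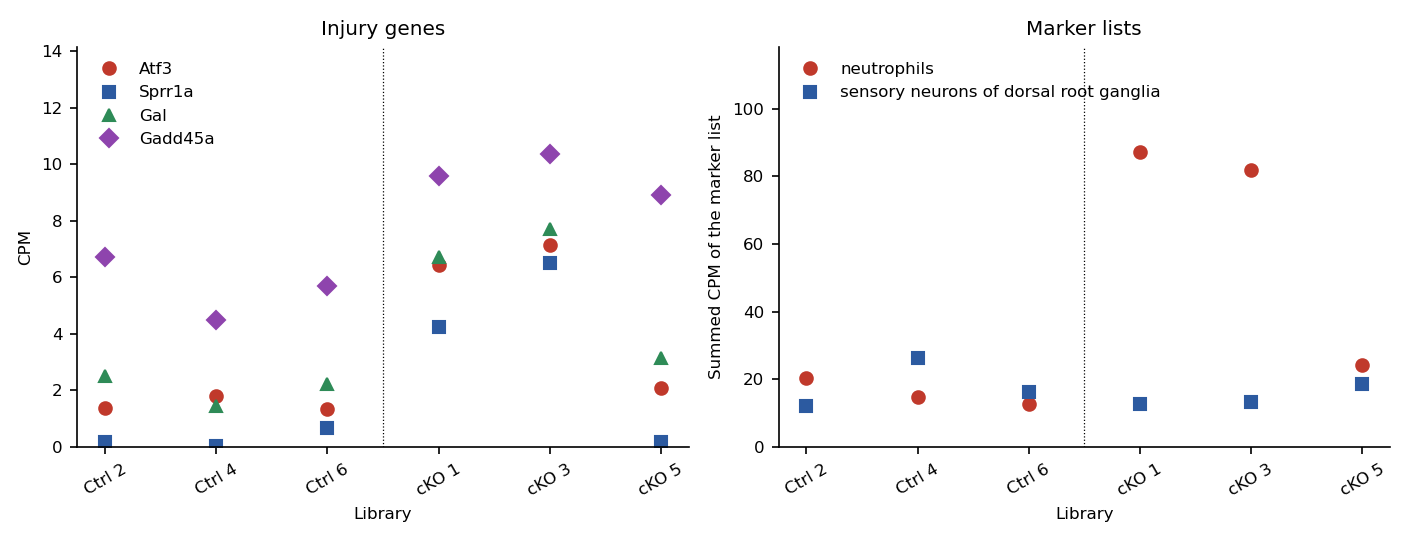
CPM of Atf3, Sprr1a, Gal and Gadd45a (left axis) and summed CPM of the neutrophil and dorsal root ganglion marker lists (right panel) in each of the 6 libraries. Atf3, Sprr1a, Gal and the neutrophil list are highest in Sox2 cKO 1 and 3, whereas the ganglion list is highest in Ctrl 4.

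The edgeR calls of the 4 genes depended on single libraries. DESeq2 called Gal and Gadd45a in all 6 fits with 1 library left out (adjusted p at most 0.016 and 0.034). It called Sprr1a and Stmn2 in 2 of them each. With edgeR, none of the 9 genes was called higher without Ctrl 4, without Sox2 cKO 1 or without Sox2 cKO 3. At an unadjusted p below 0.05 (edgeR) 4 of them were higher each time, and DESeq2 called 2, 3 and 2. In those 3 fits the adjusted p (edgeR) was 0.118, 0.101 and 0.103 for Sprr1a, 0.074, 0.072 and 0.054 for Gal, 0.069, 0.067 and 0.054 for Gadd45a and 0.148, 0.086 and 0.131 for Stmn2. Sprr1a also missed the threshold without Ctrl 2 and without Ctrl 6 (edgeR, adjusted p = 0.058 and 0.0502), and its log2 fold change was 5.02 without Ctrl 6 and 2.90 without Sox2 cKO 3. Stmn2 also missed it without Ctrl 6 and without Sox2 cKO 5 (edgeR, adjusted p = 0.117 and 0.092). Leaving out Sox2 cKO 1 lowered the count over the whole table as well, to 3 genes higher and 5 lower (edgeR), and leaving out Ctrl 4 lowered it to 13 and 13. The log2 fold change of Atf3 ran from 1.48 without Sox2 cKO 3 to 2.16 without Sox2 cKO 5. The pathway lists held no called gene without Sox2 cKO 1 or without Ctrl 4 (edgeR), where 25 and 23 genes were higher and 24 and 22 lower at an unadjusted p below 0.05, and where DESeq2 called 13 or more in each direction. The share of all genes at such an unadjusted p in these fits was not counted, so these counts have no background beside them.

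On the scale of FPKM, the fragments scaled to gene length and library size, which allows levels to be compared between genes, the injury genes spanned a wide range in the Ctrl cord. Stmn2 was highest, at 195 ± 23.8 FPKM (SD, n = 3), followed by Gap43 at 102 ± 8.43 FPKM. Ecel1, Jun and Csf1 came next at 15.1 ± 0.802, 14.1 ± 1.16 and 14.1 ± 1.25 FPKM, with ranges that overlapped. Gadd45a, Gal and Sox11 followed at 4.46 ± 0.969, 2.80 ± 0.779 and 1.42 ± 0.247 FPKM, each apart from the next. Atf3 and Sprr1a were lowest, at 0.735 ± 0.117 and 0.354 ± 0.388 FPKM, and could not be ordered.

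In Sox2 cKO, Stmn2 at 257 and Gap43 at 119 FPKM were again the highest. Ecel1, Jun and Csf1 came next at 16.4, 14.5 and 14.1 FPKM, again with ranges that overlapped. The lower 5 had mean levels of 8.54 FPKM for Gal, 8.14 for Gadd45a, 4.73 for Sprr1a, 2.74 for Atf3 and 1.26 for Sox11, and the range of each overlapped that of the next.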

How the data were processed

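The deposited tables hold counts per gene and FPKM values for 3 Ctrl and 3 Sox2 cKO spinal cord libraries. The authors made the counts from reads aligned with STAR (2.5) and counted with HTSeq (0.6.1), per the labels. The FPKM values deposited beside them were taken as those counts scaled to gene length and library size. The lengths they imply lay within a relative tolerance of 0.001 of a whole number for 24442 of 24442 genes with a count. Long genes meet this limit by rounding alone, so the check cannot decide the point for them. A list of the authors' own comparison in the study's supplement holds group means, fold changes and p-values. Of these the group means alone were used, to check which columns form each group. Gene names came from GENCODE M21 (GRCm38), which matched 34490 of 35275 identifiers.

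Counts were filtered with filterByExpr, scaled by TMM and tested with the quasi-likelihood test of edgeR (4.0.16, R 4.3.3), with Benjamini-Hochberg adjustment over 16137 genes and a threshold of 0.05. No covariate was used. Alternatives were DESeq2 (1.42.0), upper quartile and RLE scaling, no filter, at least 10 counts in every library, limma (3.58.1) on log2(FPKM + 1) or log2(FPKM + 0.1) for genes of mean FPKM 0.5 or more, where fold changes are on the scale of the FPKM plus the pseudocount, a lowess correction (span 0.3) of each library for log2 length, and each library left out in turn. The fits were tested on simulated counts. The 10 genes and the gene lists were chosen with earlier results of these data known. The rule named the 10 genes, Sox2, the 5 genes most like Atf3 and, per pathway list, up to 3 called genes of largest fold change, and the other list and marker genes in the text were named after their values were seen. The values of 1 list gene are not reported here. Likeness to Atf3 is Pearson's r of log2 CPM over 6 libraries. The depth of 21507911 to 28392184 counts leaves at most 191 counts of Sprr1a, 209 of Atf3 and 226 of Gal in a library.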

Additional observations from a re-analysis of the deposited data

How the results depend on the processing

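The count of 4 genes called higher and 0 called lower among the 9 was 3 or 4 and 0 under DESeq2, both other scalings, both other filters and both limma fits, and 1 and 0 with the length correction. The cause of these changes was not tested, but Sprr1a was not in the fit with at least 10 counts in every library. With the length correction 981 genes of the whole table were called higher and 1128 lower, and 9 and 10 of the pathway lists. With limma 915 (log2(FPKM + 1)) and 896 (log2(FPKM + 0.1)) genes were lower, and 9 of the pathway lists in each fit. The FPKM scale also moved the median of all genes, to 0.11 with the smaller pseudocount.

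With 1 library left out, edgeR called 3 to 3030 genes higher and 5 to 3089 lower over the whole table, 0 to 3 and 0 to 1 among the 9 genes, and 0 to 26 and 0 to 31 among the pathway lists. DESeq2 called 891 to 2609 and 1105 to 2998 over the whole table, 2 to 3 and 0 to 1 among the 9 genes, and 13 to 25 and 13 to 29 among the lists, but gave Sprr1a no adjusted p without Sox2 cKO 1 or 3. The 1 gene called lower was Sox11, without Ctrl 2. A lone arm of 2 libraries shares its spread with the other group.

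Among the genes that did not pass, the log2 fold change changed sign for Gap43 (-0.14) and Sox11 (0.057) with the length correction. That of Jun was 0.034 and 0.036 with limma and -0.17 to 0.037 with 1 library left out, above 0 without Ctrl 4 (0.0011, edgeR) and without Sox2 cKO 1 (0.037 with edgeR, 0.025 with DESeq2). That of Ecel1 was -0.024 with the length correction and -0.052 to 0.058 with 1 library left out, below 0 without Ctrl 2 (-0.038 and -0.052) and without Sox2 cKO 3 (-0.019 and -0.036) with edgeR and DESeq2. That of Csf1 was 0.0070 and 0.0075 with limma. Atf3, Sprr1a, Gal, Gadd45a and Stmn2 kept their direction in every fit that gave a value, and Sox2 was called lower in all 20 alternatives.

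No paired analysis was possible because the sources used here do not assign litter or sex to the columns.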
